A study of Mus musculus with 15 samples.

Results

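RNA sequencing was used to follow 10 genes of the Wnt pathway in mouse embryonic stem cells (ESCs) as they lost OCT4, the pluripotency factor encoded by *Pou5f1*. The 10 were taken as a named list out of the 48709 genes in the count files, and all 10 were found there under a single identifier each. They were *Axin2*, *Nkd1* and *Notum* (feedback inhibitors of the pathway), *Znrf3* and *Rnf43* (ligases that remove Wnt receptors), *Sp5*, *Cdx1* and *T* (transcription factors that Wnt signals switch on), and *Lef1* and *Tcf7* (members of the TCF/LEF family). All 10 passed the filter on low counts in each line.

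OCT4 was removed by either of 2 routes. CreER ESCs, of mixed 129SV C57BL/6 strain with the genotype Oct4Fl/-; CAG CreER, have 1 *Pou5f1* allele flanked by loxP sites and the other already null, so that even their 0 h cells hold a single working copy. A Cre recombinase fused to an estrogen receptor and driven by the ubiquitous CAG promoter deletes the floxed allele once 4-OHT (500 nM) is added, and 2 libraries each were made at 0, 12, 18, 24 and 36 h. O4AID ESCs, of 129SV strain, descend from the ZHBT line and are labelled Oct4-/- with a TetOFF Oct4 transgene. That transgene was kept silent in every O4AID library, 0 h included, with doxycycline (1 µg/ml). These cells live on CAG Oct4AID, an OCT4 fused to an auxin-inducible degron, and also carry CAG Tir1, the plant protein that marks the fusion for destruction once the auxin IAA (500 µM) is added. O4AID was sampled at 0, 1.5, 6, 10 and 24 h, with 1 library a time. Neither course has an untreated library at a later time, or a library given the agent with OCT4 kept. Time in culture, the agent (4-OHT with Cre, or IAA with Tir1) and loss of OCT4 thus cannot be told apart.

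In the canonical Wnt pathway a destruction complex built on Axin and APC lets the kinase GSK3 mark β-catenin for degradation. When Wnt ligands bind Frizzled and LRP receptors, or when GSK3 is inhibited by a drug, β-catenin accumulates, enters the nucleus and joins TCF/LEF factors at their target genes. Many of those targets encode brakes on the pathway, so their RNA is widely read as a gauge of its output. Per the labels, cells of both lines were grown in N2B27 with LIF, 3 µM Chiron (CHIR99021, a GSK3 inhibitor) and 1 µM PD03 (an inhibitor of MEK, the kinase upstream of ERK). By those labels every comparison starts from cells given a GSK3 inhibitor, which acts downstream of the receptors. Several ERK response genes differed between the lines at 0 h, as described below, and no measure here checks Chiron apart from the Wnt targets themselves.

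The stretches just upstream of 4 of the genes are shown, *Axin2*, *Sp5* and *Lef1* because their RNA set the lines apart, and *T* because it was the other gene with a TCF/LEF word in its window. RefSeq start sites on GRCm38.p6 gave windows of 250 bases before and 50 bases after the start for 7 of the 10 genes. There were 12 windows in all, and the 250 upstream bases are printed. *Notum*, *Znrf3* and *Cdx1* had no window and were not searched. The windows lie at chr2:70474673-70474922 for *Sp5*, chr17:8434173-8434422 for *T*, chr11:108920099-108920348 for *Axin2* and chr3:131110047-131110296 for *Lef1* (the first of 4 windows), all on the plus strand. Capitals mark exact matches to the TCF/LEF words CTTTGAT or CTTTGAA, to the octamer word ATGCAAAT, or to the same octamer less its first letter, TGCAAAT, each searched on both strands.
Sp5: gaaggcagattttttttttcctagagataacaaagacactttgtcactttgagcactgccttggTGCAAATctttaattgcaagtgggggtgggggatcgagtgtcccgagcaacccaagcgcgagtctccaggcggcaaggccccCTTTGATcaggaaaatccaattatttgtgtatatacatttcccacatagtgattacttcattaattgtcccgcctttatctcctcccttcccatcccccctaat
T: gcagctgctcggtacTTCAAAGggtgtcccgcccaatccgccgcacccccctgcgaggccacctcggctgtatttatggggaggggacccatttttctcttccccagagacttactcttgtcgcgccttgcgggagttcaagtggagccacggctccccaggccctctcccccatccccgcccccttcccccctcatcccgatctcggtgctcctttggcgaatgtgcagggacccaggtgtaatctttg
Axin2: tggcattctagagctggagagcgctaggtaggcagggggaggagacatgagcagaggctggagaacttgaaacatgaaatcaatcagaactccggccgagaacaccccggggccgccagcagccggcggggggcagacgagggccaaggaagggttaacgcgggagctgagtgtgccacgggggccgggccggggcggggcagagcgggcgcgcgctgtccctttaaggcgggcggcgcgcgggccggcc
Lef1: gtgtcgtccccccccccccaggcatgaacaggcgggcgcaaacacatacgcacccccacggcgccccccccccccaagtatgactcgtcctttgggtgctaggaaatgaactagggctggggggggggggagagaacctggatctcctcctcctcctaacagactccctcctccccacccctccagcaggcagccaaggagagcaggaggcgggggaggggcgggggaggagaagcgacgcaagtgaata
The *Sp5* window held CTTTGAT starting 104 bases upstream of the start and TGCAAAT starting 186 bases upstream. The *T* window held CTTTGAA on the opposite strand, 235 bases upstream. The other 5 genes with a window held none of these words. Over all 32851 windows of the same length, 3.73% held CTTTGAT, 5.14% held CTTTGAA, 1.74% held ATGCAAAT and 4.02% held TGCAAAT. A match describes these letters alone.

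CreER libraries held 21655083 to 30774618 reads counted in genes, and O4AID libraries held 40537353 to 48719670. All 10 naive ESC markers checked (among them *Nanog*, *Esrrb* and *Klf4*) had reads at 0 h, with a summed level of 2326 to 2354 CPM (read counts scaled to a common library size, here by the TMM method over all 15 libraries) in CreER and 6486 CPM in O4AID. *Pou5f1* itself stood at 330 and 326 CPM in the CreER replicates at 0 h and at 115 and 127 CPM at 36 h, a log2 fold change of -1.43 ± 0.045 (SE; edgeR adjusted p = 4.15e-19). In O4AID its RNA read 717 CPM at 0 h and 601 CPM at 24 h. The degron acts on the protein, so that RNA does not check the loss of OCT4 there. Values of single genes are CPM scaled within a line, and levels compared between genes or lines are RPKM (CPM divided by the length of the gene model in kilobases, scaled over all 15 libraries).

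Before OCT4 loss, the lines differed most in *Cdx1*, *Sp5* and *Lef1*. *Cdx1*, a homeobox gene of the posterior body axis (ENSMUSG00000024619), stood at 0.625 and 0.736 RPKM in the CreER replicates and at 61.4 RPKM in O4AID, a ratio of 90.2. *Sp5* stood at 0.353 and 0.283 RPKM in CreER and at 6.16 RPKM in O4AID, a ratio of 19.4. *Lef1* ran the other way, with 2.92 and 2.81 RPKM in CreER and 0.143 RPKM in O4AID. *Axin2* was 3.4 times higher in O4AID, at 7.62 RPKM against 2.45 and 2.03 RPKM, whereas *Notum* stood at 6.7 RPKM in O4AID and at 6.52 and 6.33 RPKM in CreER. On log2 of CPM plus 1, 3 of the 10 genes were more than 2-fold higher and 1 more than 2-fold lower in O4AID, where 29.4% of the 20339 genes compared differed by that much in either direction. O4AID has a single library at 0 h, so these ratios compare libraries, and line, strain, transgenes, sequencing and the medium the cells were in cannot be told apart.

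**Figure D1:**
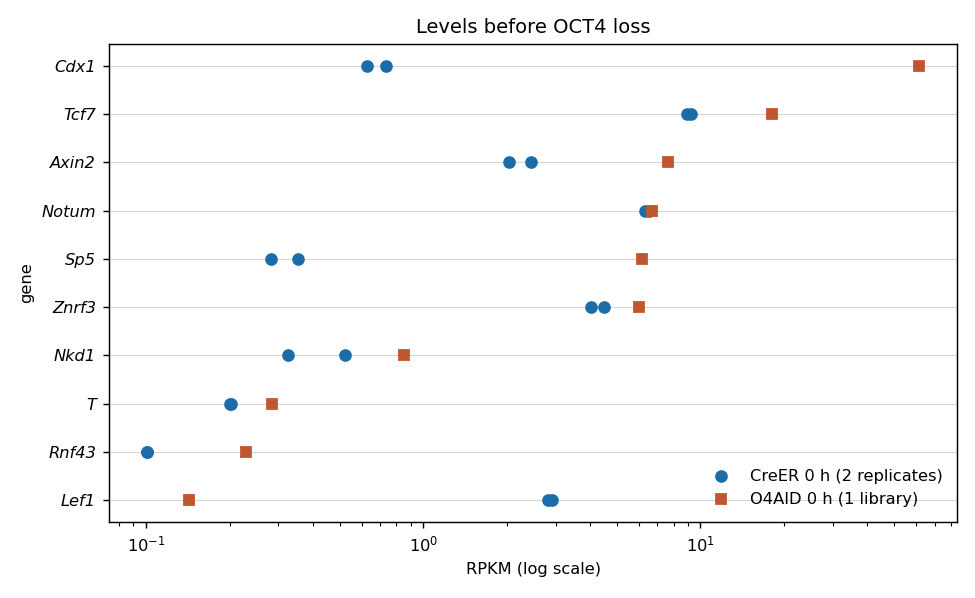
RPKM (log axis) of the 10 genes at 0 h, with a circle for each of the 2 CreER replicates and a square for the O4AID library. *Cdx1* is the highest gene in O4AID at 61.4 RPKM and lies below 1 RPKM in CreER, while *Lef1* is the lowest gene in O4AID.

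The order of the levels also differed between the lines. In CreER at 0 h *Tcf7* led with 9.11 ± 0.203 RPKM (mean ± SD, n = 2), followed by *Notum* at 6.43 ± 0.13, *Znrf3* at 4.25 ± 0.324, *Lef1* at 2.86 ± 0.0798 and *Axin2* at 2.24 ± 0.302 RPKM. *Cdx1* came next at 0.68 ± 0.0785 RPKM, then *Nkd1* at 0.424 ± 0.139 and *Sp5* at 0.318 ± 0.0497 RPKM, and these last 2 overlapped between replicates. *T* at 0.201 and *Rnf43* at 0.101 RPKM closed the order. In O4AID *Cdx1* was followed by *Tcf7* at 18.1 RPKM, and the order ended with *Nkd1* at 0.85, *T* at 0.285, *Rnf43* at 0.229 and *Lef1* at 0.143 RPKM. *T*, *Sp5* and *Rnf43* rested on 6 to 32 reads a library in CreER, which limits what could be seen there.

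The ERK response genes, which the MEK inhibitor holds down, also differed at 0 h. *Spry4*, a feedback inhibitor of the ERK pathway, stood at 195 and 188 CPM in CreER and at 1.96 CPM in O4AID, and *Dusp6*, an ERK phosphatase, stood at 129 and 131 CPM against 7.9 CPM (scaled over all 15 libraries). Of the 10 genes of that list, 5 were more than 2-fold lower in O4AID and 0 more than 2-fold higher. Of the 20339 genes compared, 2841 were that much lower and 3135 that much higher. Within the list *Etv5* ran the other way, at 348 and 337 CPM in CreER and 599 CPM in O4AID. *Spry2* and *Phlda1* were lower in O4AID by less than 2-fold. *Etv4*, at 59.6 CPM in O4AID, lay between its CreER replicates of 63.2 and 58.4 CPM. So did *Fos*, at 1.73 CPM between 2.38 and 1.72 CPM. *Myc* stood at 24.2 and 24.7 CPM in CreER and had 1 read in O4AID. The labels give the same medium, with PD03, for both lines, and these CreER levels were taken before any 4-OHT. Whether the medium differed between the lines at 0 h was not tested, and it cannot be told apart from line and strain. Its part in the *Cdx1*, *Sp5*, *Axin2* and *Lef1* ratios was not tested either. In the study's assays of OCT4 depletion the CreER cells were moved to serum and LIF on adding 4-OHT. Serum with LIF holds neither Chiron nor PD03. Whether the sequenced CreER cells were moved too is not stated, so medium and deletion cannot be told apart, and the part of either in the Wnt genes was not tested.

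The CreER course asks which of the 10 genes changed after deletion of *Pou5f1*. By the quasi-likelihood test of edgeR, fitted over all 10 CreER libraries and adjusted over 18969 genes, 0 of the 10 were called at 12 h (adjusted p under 0.05), where 0.395% of all genes were. At an unadjusted p under 0.05 *Lef1* alone stood out at 12 h. The count was 2 of 10 after 18 h (8.52% of all genes) and 2 of 10 after 24 h (21.6%). It reached 5 of 10 after 36 h (36.6%). At 18 and 24 h the calls were *Notum*, which rose, and *Lef1*, which fell. At 36 h *Axin2* and *Cdx1* rose, while *Lef1*, *Tcf7* and *Znrf3* fell. That is 2 of 10 higher, beside 19.4% of all genes, and 3 of 10 lower, beside 17.2%, so these counts do not set the 10 genes apart as a group. The median log2 fold change of the 10 genes was 0.13 at 18 h and 0.10 at 36 h, beside 0.01 for all genes at both times. Between 24 and 36 h 5 of 10 were called (14.7% of all genes), with *Axin2* and *Cdx1* higher and *Notum*, *Lef1* and *Tcf7* lower. That last count was 3 by the DESeq2 test and 2 without either 24 h library. The labels number the replicates but do not say that they came from separate cultures, so the p-values measure the spread between these libraries, which may be technical. In bulk RNA a change in the share of cells of a type and a change in RNA per cell cannot be told apart.

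The O4AID course asks the same after degradation of the OCT4 protein. With 1 library a time there is no test, so a gene was counted when its log2 ratio of CPM plus 1 to the 0 h library reached 1 (2-fold) among 19406 genes. At 1.5 h 0 of the 10 reached that mark (0.0773% of all genes). By 6 h 1 of 10 had (0.84%), by 10 h 5 of 10 (1.89%) and by 24 h 7 of 10 (6.07%). *Cdx1* was lower at 6, 10 and 24 h. *Axin2*, *Nkd1*, *Notum* and *Sp5* were higher at 10 h, which is 4 of 10 beside 1% of all genes higher by that much. At 24 h *Rnf43* and *Lef1* joined them, which made 6 of 10 beside 3.5% of all genes. The 19406 genes include any with 10 counts in 1 library, and with 1 CPM added the lowest of them could not reach 2-fold higher. That holds the shares of all genes down. The median of the 10 genes at 24 h was 1.26 on the log2 scale, beside -0.01 for all genes. Ratios of low genes depend on the pseudocount, and with 5 CPM added in place of 1 the count was 3 at 10 h and 4 at 24 h, when *Nkd1*, *Rnf43* and *Lef1* no longer reached the mark. With 0.1 CPM added it was 6 at 10 h, *T* being the gene gained, and 7 at 24 h.

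**Figure D2:**
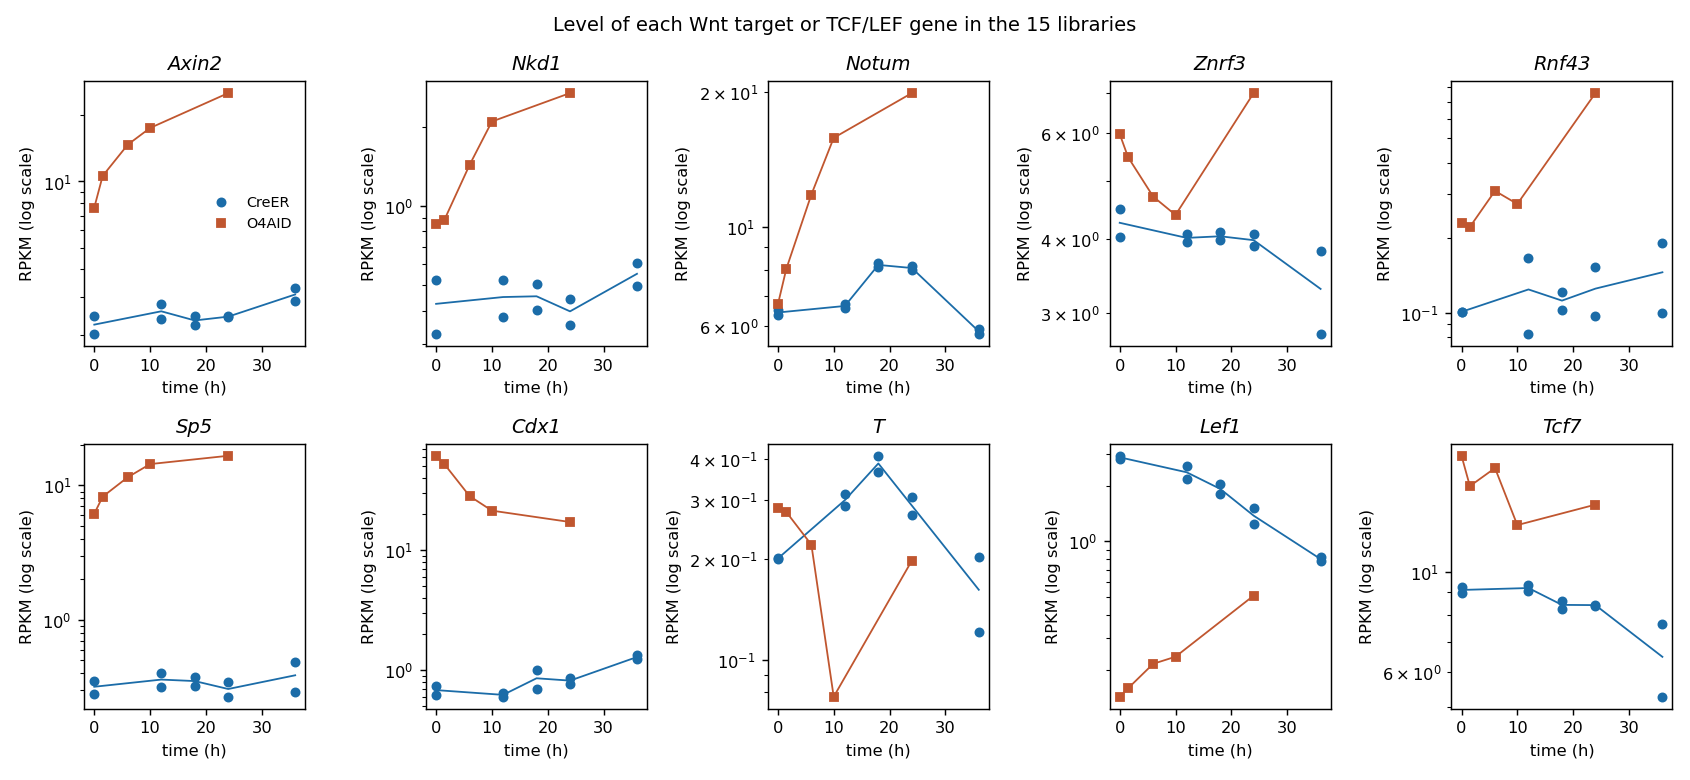
RPKM (log axis) of each gene against time (h), with circles for the 2 CreER replicates, squares for the single O4AID libraries and lines through the means. *Axin2*, *Nkd1*, *Notum* and *Sp5* stand higher at each later O4AID time while *Cdx1* stands lower, and mean *Lef1* in CreER goes from 2.86 RPKM at 0 h to 0.802 RPKM at 36 h.

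Of the feedback inhibitors, *Axin2* encodes a scaffold of the destruction complex and is a widely used reporter of Wnt output. The gene (ENSMUSG00000000142) spans chr11:108920349-108950783 on the plus strand of GRCm38, the build of all gene positions given here. In O4AID it stood at 39.3, 55.2, 76.6, 92 and 132 CPM in order of time. Each library was above the one before, and the log2 ratio was 0.48 at 1.5 h (95% interval 0.39 to 0.57, for counting error only, as are all intervals here) and 1.72 at 24 h (1.64 to 1.79). In CreER the replicates read 13.9 and 11.5 CPM before 4-OHT, 13.4 and 15.6 after 12 h, 13.9 and 12.6 after 18 h, 13.8 and 13.8 after 24 h, and 18.5 and 16.3 CPM after 36 h. Only at 36 h did the groups not overlap, with a log2 fold change of 0.48 ± 0.0997 (SE; edgeR adjusted p = 0.000374). The adjusted p ranged from 2.78e-06 to 0.0226 over 17 other settings.

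*Nkd1* encodes a protein that binds Dishevelled and dampens the signal (ENSMUSG00000031661, chr8:88521354-88594884, plus strand). In O4AID it stood at 3.63, 3.81, 6.17, 9.08 and 11.6 CPM in order of time, so it was near its start at 1.5 h and higher from 6 h on. Its log2 ratio was 0.05 at 1.5 h, with an interval of -0.19 to 0.30 that includes 0. It reached 0.63 by 6 h (0.40 to 0.86) and 1.45 by 24 h (1.24 to 1.65). In CreER it lay between 1.53 and 2.85 CPM in all 10 libraries and the test called no time, with 0.40 ± 0.232 at 36 h (edgeR adjusted p = 0.186).

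*Notum* encodes a secreted enzyme that strips the lipid from Wnt ligands (ENSMUSG00000042988, chr11:120653788-120661175, minus strand). It was the feedback inhibitor with the most similar level in both lines at 0 h and the one with a transient course in CreER. Its CreER replicates read 16.1 and 15.7 CPM before 4-OHT, 16.2 and 16.6 after 12 h, 20.5 and 20.1 after 18 h, 20 and 20.1 after 24 h, and 14.2 and 14.7 CPM after 36 h. The 18 and 24 h pairs lay above all others. The rise was 0.36 ± 0.0732 on the log2 scale at 18 h (edgeR adjusted p = 0.00196) and 0.34 ± 0.073 at 24 h (adjusted p = 0.00128), and from 24 to 36 h it fell by 0.47 (adjusted p = 7.89e-05). At 36 h the replicates lay below those of 0 h, with -0.13 ± 0.0794, which was not called (adjusted p = 0.214). In O4AID it stood at 15.1, 18.2, 26.8, 36.3 and 45.5 CPM in order of time, with a log2 ratio of 1.53 at 24 h (1.41 to 1.64). The annotated antisense gene *Notumos* shares 708 exon bases with *Notum* and had 47 to 165 reads a library of its own. Since the strand setting of the counting is not stated, reads of the pair cannot be told apart with certainty.

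*Znrf3* and *Rnf43* encode membrane ligases that clear Frizzled receptors from the cell surface and are themselves Wnt targets. *Znrf3* (ENSMUSG00000041961, chr11:5276324-5444847, minus strand) did not follow the feedback inhibitors in O4AID. It stood at 44.2, 40.7, 35.1, 32.9 and 52.5 CPM in order of time, so it was lower up to 10 h, by a log2 ratio of -0.41 (-0.51 to -0.32), and above its start at 24 h (0.24, 0.16 to 0.32). In CreER the replicates read 36.3 and 32.7 CPM at 0 h, 31.8 to 33.3 CPM from 12 to 24 h, and 30.9 and 22.6 CPM at 36 h. The fall was 0.34 on the log2 scale (edgeR adjusted p = 0.0208) and rests on the second 36 h library, since without it the value was -0.15 and was not called (adjusted p = 0.17). The call was also lost without the first 0 h library (-0.26, adjusted p = 0.127) and in a fit of the 4 libraries compared (adjusted p = 0.0562). *Rnf43* (ENSMUSG00000034177, chr11:87662722-87735539, plus strand) was low throughout. In O4AID it stood at 1.41, 1.37, 1.91, 1.71 and 4.73 CPM, so the 24 h library stood apart (log2 ratio 1.25, 0.99 to 1.50). In CreER it lay between 0.553 and 1.28 CPM, the groups overlapped at 12, 24 and 36 h, and no time was called.

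*Sp5*, a zinc finger factor whose RNA follows β-catenin closely in many tissues (ENSMUSG00000075304, chr2:70474923-70477729, plus strand), stood at 12.1, 16.3, 22.9, 28.9 and 33.2 CPM in order of time in O4AID. Each library stood above the one before, as for *Axin2*, and the log2 ratio was 0.40 at 1.5 h (0.25 to 0.55) and 1.38 at 24 h (1.25 to 1.51). In CreER it lay between 0.576 and 1.04 CPM, at 13 to 26 reads a library, and the change at 36 h was 0.33 ± 0.343 (edgeR adjusted p = 0.489). With so few reads, changes within that error were not detectable.

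Of the 10 genes, *Cdx1* alone was more than 2-fold lower in O4AID at 24 h. It stood at 101, 86.1, 46.9, 35.7 and 28.6 CPM in order of time. Each library was below the one before, and the log2 ratio was already -0.22 at 1.5 h (-0.28 to -0.16). It reached -1.09 by 6 h (-1.16 to -1.01) and -1.78 by 24 h (-1.86 to -1.70). In CreER, where the gene was low from the start, the replicates read 1.12 and 1.32 CPM before 4-OHT, 1.07 and 1.16 after 12 h, 1.82 and 1.26 after 18 h, 1.57 and 1.38 after 24 h, and 2.2 and 2.42 CPM after 36 h. There it rose by 0.91 ± 0.232 on the log2 scale at 36 h (edgeR adjusted p = 0.00267), with both 36 h libraries above all earlier ones. The step from 24 to 36 h was 0.64 with an adjusted p of 0.0499, and 12 of 17 other settings did not call it (adjusted p from 0.0458 to 0.26). Even at 36 h the CreER level of 1.28 ± 0.0767 RPKM was far under the 17.2 RPKM that O4AID still held at 24 h.

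*T* (Brachyury, ENSMUSG00000062327, chr17:8434423-8442496, plus strand) is the T-box gene of primitive streak and early mesoderm. Its CreER replicates read 0.481 and 0.476 CPM before 4-OHT, 0.683 and 0.743 after 12 h, 0.97 and 0.872 after 18 h, 0.653 and 0.73 after 24 h, and 0.48 and 0.29 CPM after 36 h. The libraries of 12, 18 and 24 h all lay above those of 0 h, but with 6 to 25 reads a library the value at 18 h, 0.94 ± 0.336, was not called (edgeR adjusted p = 0.083; 0.0755 to 0.318 over 15 other settings). In O4AID it stood between 0.171 and 0.619 CPM. The lowest was the 10 h library, with 7 reads and a log2 ratio of -0.47 (-0.72 to -0.19). That ratio was -1.41 with 0.1 CPM added and -0.12 with 5 CPM added, and the 24 h interval includes 0. Of 8 other primitive streak and mesoderm markers, 5 were tested in CreER at 36 h. Of these 1 rose and 3 fell, where 19.4% of all genes rose and 17.2% fell. In O4AID at 24 h 1 of 5 compared was more than 2-fold lower, beside 6.07% of all genes past 2-fold in either direction.

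*Lef1* and *Tcf7* encode DNA-binding partners of β-catenin and are also Wnt targets. *Lef1* (ENSMUSG00000027985, chr3:131110471-131224356, plus strand) had the largest change of the 10 genes in CreER. Its replicates read 26.3 and 25.4 CPM before 4-OHT, 19.8 and 23.1 after 12 h, 16.3 and 18.6 after 18 h, 11.5 and 13.6 after 24 h, and 7.04 and 7.44 CPM after 36 h. No later pair overlapped the 0 h pair. After 12 h the change was -0.27 ± 0.0842, which was not called (edgeR adjusted p = 0.205). It was -0.56 ± 0.0866 after 18 h (adjusted p = 8.76e-05), -1.05 ± 0.0907 after 24 h (adjusted p = 2.03e-09) and -1.83 ± 0.104 after 36 h (adjusted p = 1.3e-13). From 24 to 36 h it fell by 0.78 (adjusted p = 2.45e-05). In O4AID it began low and was higher later, at 1.17, 1.32, 1.79, 1.98 and 4.23 CPM in order of time, with 55 to 204 reads. The log2 ratio there was 0.36 at 6 h (0.06 to 0.65) and 1.27 at 24 h (1.00 to 1.52). The lines thus approached each other, at 0.802 ± 0.0263 RPKM in CreER at 36 h and 0.507 RPKM in O4AID at 24 h. The antisense gene *Gm43352* shares 1208 exon bases with *Lef1* and had 0 to 17 reads a library.

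*Tcf7* (ENSMUSG00000000782, chr11:52252371-52283014, minus strand) was the more abundant of the pair in both lines. In CreER it read 24.2 and 25 CPM before 4-OHT, 24.4 and 25.2 after 12 h, 23.3 and 22.3 after 18 h, 22.9 and 22.7 after 24 h, and 20.6 and 14.3 CPM after 36 h. It fell by 0.47 on the log2 scale at 36 h (edgeR adjusted p = 0.00214). The 36 h libraries were far apart, and the value was -0.25 without the second of them (adjusted p = 0.0275) and -0.77 without the first (adjusted p = 2.23e-07). In O4AID it stood at 44.6, 38.4, 42.1, 31.9 and 35.2 CPM in order of time, and the log2 ratio at 24 h was -0.33 (-0.42 to -0.24).

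At 24 h, the one treated time both courses share, the lines can be set side by side on the log2 scale of CPM plus 1, each against its own 0 h. *Axin2* was at 0.12 in each CreER replicate and at 1.72 in O4AID. *Nkd1* was at 0.07 and -0.15 in the CreER replicates and at 1.45 in O4AID, and *Sp5* was at 0.06 and -0.10 against 1.38. *Lef1* was at -1.11 and -0.88 in the CreER replicates and at 1.27 in O4AID. *Cdx1* ran the opposite way, at 0.21 and 0.10 in CreER and at -1.78 in O4AID, though its CreER change was not called (edgeR adjusted p = 0.482). *Tcf7* was lower in both, at -0.10 and -0.11 in CreER and -0.33 in O4AID. With 1 library a time in O4AID these differences were not tested, and hours since the agent was added do not mark the same loss of OCT4 in the 2 systems.

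**Figure D3:**
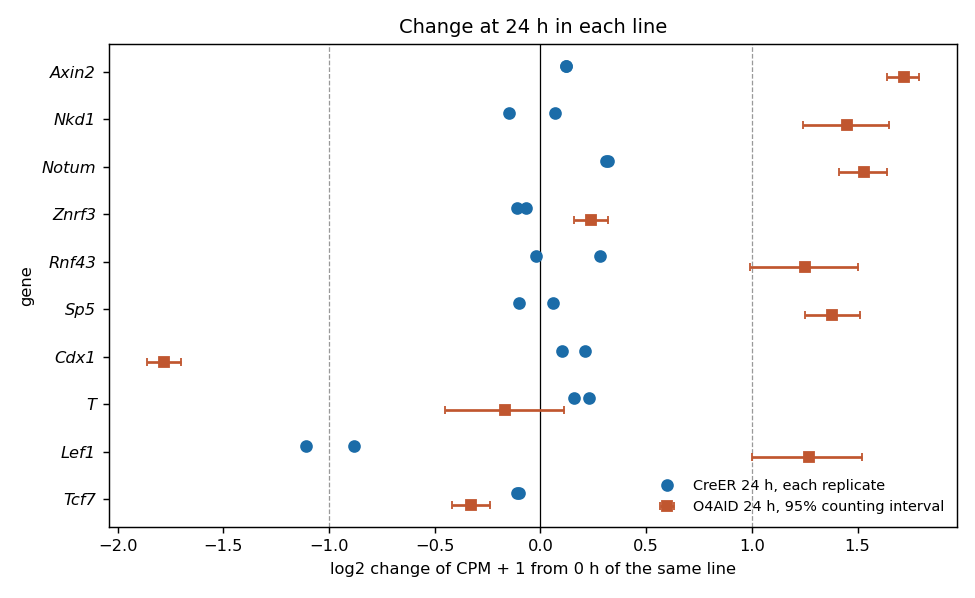
Log2 change of CPM plus 1 at 24 h from the 0 h of the same line, with circles for each CreER replicate and squares with 95% counting intervals for O4AID. Dashed lines mark 2-fold. Of the 10 genes, 6 lie past the right line and *Cdx1* past the left line in O4AID, whereas *Lef1* is the gene near the left line in CreER.

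Upstream of these genes, the ligands and the proteins that release them were examined from a list of 21. For this and every list below, 19.4% of all genes rose and 17.2% fell in CreER at 36 h. In O4AID at 24 h 6.07% of all genes were past 2-fold, and 3.5% were higher by that much. A count near these shares does not set its list apart. In CreER at 36 h 17 were tested, of which 9 rose and 1 fell, with a median of 0.57 on the log2 scale beside 0.01 for all genes. *Wnt7b* rose from 11.0 ± 0.579 to 40.2 ± 1.06 CPM (log2 fold change 1.89, edgeR adjusted p = 6.46e-17) and *Wnt6* from 2.72 ± 0.28 to 7.47 ± 1.46 CPM (1.45, adjusted p = 2.96e-08). *Wnt16* rose by 1.55 at well under 1 CPM (adjusted p = 0.0387), a call that 6 of 14 other settings lost. In O4AID at 24 h 3 of 11 were more than 2-fold higher and 0 lower. *Wnt6* stood at 2.2 CPM at 0 h and 17.2 CPM at 24 h, and *Wls*, which carries Wnt ligands to the cell surface, at 8.56 and 61 CPM. The sum over the list, scaled over all 15 libraries, was between 77.4 and 78.4 CPM in the untreated CreER pair and between 127 and 133 CPM in the 36 h pair. In O4AID it was 39.5 CPM at the start and 111 CPM at 24 h, and most of that gain was *Wls*, which is not itself a ligand.

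Of 15 receptors and co-receptors, 5 rose and 4 fell in CreER at 36 h, where 36.6% of all genes were called. In O4AID at 24 h 3 of 14 were more than 2-fold higher and 1 lower, beside 6.07% of all genes. *Fzd5* fell from 57.4 ± 1.13 to 28.7 ± 0.882 CPM in CreER (-0.99, edgeR adjusted p = 4.77e-13) and stood at 107 and 30.2 CPM at 0 and 24 h in O4AID. *Ror2* (0.75) and *Fzd1* (0.71) rose in CreER, while in O4AID *Fzd2* was higher at 24 h by 1.39. Of the R-spondins and their Lgr receptors, which protect Frizzled from *Znrf3* and *Rnf43*, 5 of 7 were tested, of which 2 rose and 1 fell. *Lgr4*, the abundant receptor of the group, fell from 179 ± 4.45 to 109 ± 0.1 CPM (-0.70, adjusted p = 3.21e-13), whereas *Rspo3* (1.96) and *Lgr5* (1.59) rose from below 1 CPM, and the call of *Lgr5* was lost in 6 of 14 other settings. In O4AID 0 of 4 passed 2-fold, with *Lgr6* at 0.60 and *Lgr4* at 0.38. *Lgr6* was low, and its value was 1.54, past 2-fold, with 0.1 CPM added and 0.17 with 5 CPM added.

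Of the 13 genes of the destruction complex and β-catenin, 8 rose and 0 fell in CreER at 36 h, by small amounts, with a median of 0.14. The largest were *Apc2* (0.50), *Dvl3* (0.50) and *Fbxw11* (0.31), which are an APC paralog, a Dishevelled and a ubiquitin ligase subunit. In O4AID 0 of 13 passed 2-fold, and *Apc2* at 0.75 and *Btrc* at 0.48 were highest. With 0.1 CPM added *Apc2* was at 1.21, past 2-fold, and with 5 CPM added it was at 0.28. Of 11 other TCF factors, co-activators and TLE co-repressors, 3 rose and 2 fell in CreER. *Bcl9l*, a co-activator that bridges β-catenin and Pygopus, rose from 15.4 ± 2.19 to 35.2 ± 2.06 CPM (1.21, edgeR adjusted p = 1.84e-09) and stood at 16.9 and 50.8 CPM at 0 and 24 h in O4AID, the gene of that list past 2-fold there. *Pygo1* (0.74) and the co-repressor *Tle3* (0.53) also rose in CreER, and *Tle3* was at -0.55 in O4AID. The call of *Pygo1* was lost without the first 36 h library (0.44, adjusted p = 0.182).

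Of 13 secreted antagonists and their receptors, 10 were tested in CreER, of which 2 rose and 2 fell at 36 h. *Sfrp1*, which binds Wnt ligands, fell from 22 ± 0.696 to 9.67 ± 1.31 CPM (-1.16, edgeR adjusted p = 4.81e-11) and was lower by 1.78 in O4AID, at 40.7 and 11.2 CPM. *Sfrp2* fell as well (-0.70). *Dkk1*, an inhibitor of LRP co-receptors and a Wnt target, rose from 0.616 ± 0.15 to 1.35 ± 0.614 CPM (1.12, adjusted p = 0.0103), a call lost by DESeq2, without the second 0 h library (0.87, adjusted p = 0.116) and without the second 36 h library (0.60, adjusted p = 0.298). In O4AID *Dkk1* stood at 0.32 CPM at 0 h and 7.59 CPM at 24 h, a log2 ratio of 2.70 (4.19 with 0.1 CPM added and 1.24 with 5 CPM added), and 3 of 10 antagonists were more than 2-fold higher and 2 lower. Of 9 further genes known as Wnt targets in other tissues, 3 rose and 2 fell in CreER, with a median of -0.18. *Myc* fell by 1.21 (adjusted p = 1.22e-11), and *Ascl2* (1.05) and *Cd44* (0.60, not called by DESeq2) rose. In O4AID *Tnfrsf19* was higher by 1.46 and *Apcdd1* was at -1.66, and these were the 2 of 8 past 2-fold.

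**Figure D4:**
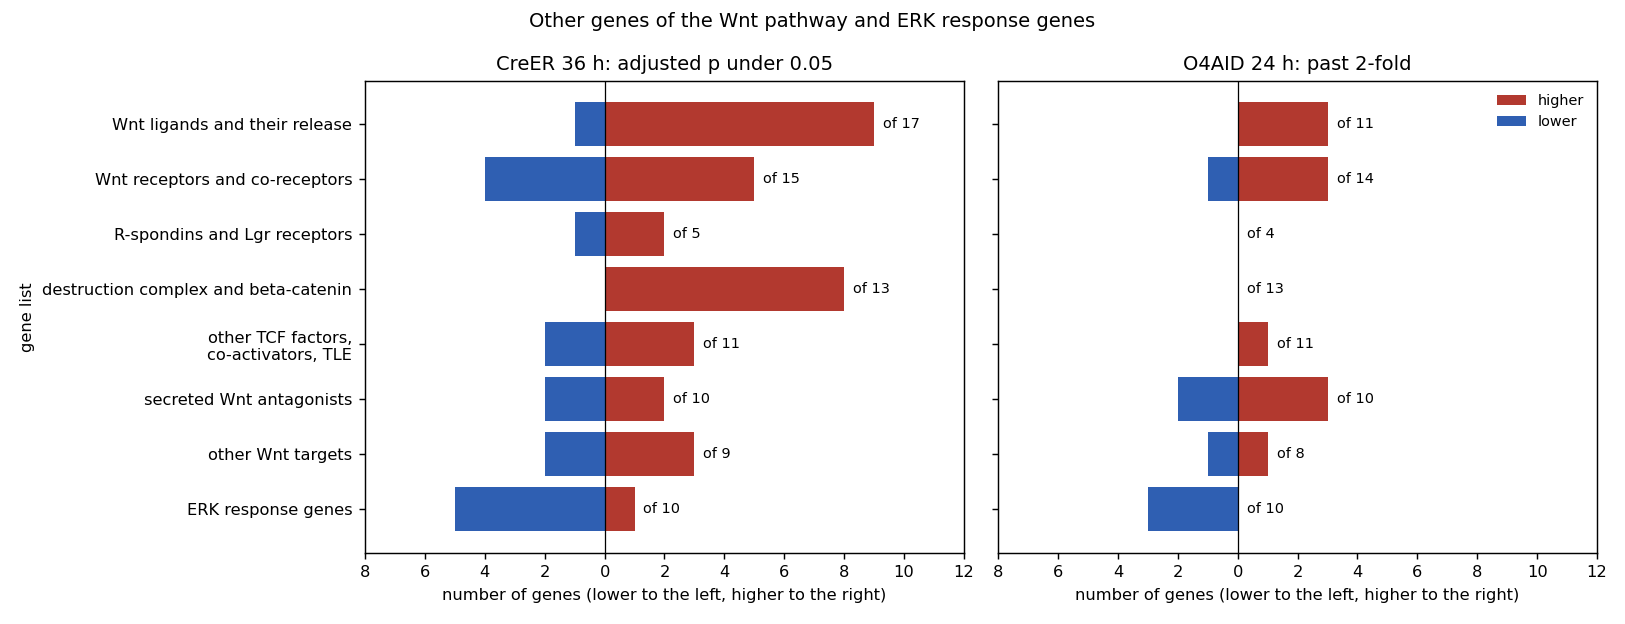
Number of genes of each list higher (right) or lower (left) in CreER at 36 h (edgeR adjusted p under 0.05) and in O4AID at 24 h (past 2-fold), with the number compared beside each bar. The list of ligands and their release (9 of 17 higher) and the destruction complex list (8 of 13 higher) lean to one side in CreER, beside 19.4% of all genes higher.

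Other programs moved in the same libraries, and their part in the Wnt genes was not tested. The shares of all genes beside these counts were again 36.6% called in CreER at 36 h and 6.07% past 2-fold in O4AID at 24 h. In CreER at 36 h all 11 trophectoderm markers rose, and of the 10 naive markers 2 rose and 6 fell. In O4AID at 24 h all 10 naive markers were more than 2-fold lower and 4 of 11 trophectoderm markers higher. Of the ERK response genes, 1 rose and 5 fell in CreER at 36 h, among them *Egr1* (-1.04) and *Etv5* (-0.57), with *Fos* higher (0.82, or 0.58 and not called without the second 0 h library). The sum of that list was 883 to 908 CPM at 0 h and 696 to 709 CPM at 36 h. In O4AID at 24 h 3 of 10 were lower, with *Spry2* at -2.38 and *Etv5* at -1.44, and the sum went from 736 to 274 CPM. Most of that sum was *Etv5*, at 561 CPM at 0 h and 206 CPM at 24 h (scaled within the line). *Fos*, *Ier3* and *Phlda1* stood above their 0 h level by less than 2-fold, and the rest of the list stood below it. Of the primitive endoderm markers, 2 rose and 1 fell of 6 tested in CreER, and 3 of 6 were higher in O4AID. Of the neural markers, 1 rose and 2 fell of 4 tested in CreER, and 1 was higher and 1 lower of 5 in O4AID. Of the fibroblast markers, 1 of 5 rose in CreER and 1 of 4 was lower in O4AID, and the sum of these 5 genes was 9.21 to 11.3 CPM in CreER and 40.5 to 57.8 CPM in O4AID. Most of the O4AID sum was *Pdgfrb*, at 37.6 CPM in O4AID and 1.43 CPM in CreER at 0 h (each scaled within its line). *Col1a1* was also higher in O4AID at 0 h, whereas *Col1a2*, *Col3a1* and *Thy1* were lower.

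The genes whose course was most like that of *Axin2* were sought by Pearson's r of log2 CPM plus 1 over the 15 libraries, each line centered on its own 0 h, among 14074 genes with a mean of at least 50 counts. They were *AA467197* (r = 0.974), *Zfp703* (0.971) and *Sp5* (0.969). *Sp5* had 13 to 26 reads a library in CreER and passed that mean through O4AID, with 568 to 1600 reads. Its r therefore mainly describes the O4AID course. Those most like *Lef1* were *Lgr4* (0.983), *Akr1b8* (0.98) and *Rasd2* (0.978). The libraries of a line share their 0 h reference, so the values of r are descriptions.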

How the data were processed

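The deposited files hold raw gene counts for 15 libraries of ribosome-depleted RNA. Per the labels the reads were trimmed with Trim Galore 0.1.4, aligned with TopHat2 2.1.0 to mm10/GRCm38 and counted by the authors with featureCounts 1.5.1, with strand and multimapping settings not given in the sources used here. A deposited TMM-normalized matrix was not used. The 92 spike-in entries had 0 reads and were left out, and 48349 of 48709 genes had a symbol (genes without one held 0.0412% of reads). Groups came from the labels.

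CreER counts were tested with edgeR 4.0.16 (R 4.3.3, TMM, filterByExpr, robust quasi-likelihood, two-sided) and adjusted by Benjamini-Hochberg over 18969 genes, and SE is that of the fitted log2 fold change. DESeq2 1.42.0 was an alternative. The study merged replicates and simulated others, so the real replicates were used here instead. O4AID log2 ratios used 1 CPM added (0.1 and 5 CPM as alternatives) and genes with at least 10 counts in at least 1 library, with 95% intervals from Wilson intervals of both shares. Reads carry no molecular identifiers, so intervals cover counting error only. Replicates were treated as separate libraries (chi-square per degree of freedom 3.3 to 7.93).

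The 10 genes, the pathway and marker lists and the tests were chosen with earlier results of these data known. Named genes were the 10, *Pou5f1*, the 3 called genes with the largest change of each pathway list in CreER at 36 h, the 2 with the largest change in O4AID at 24 h, and the 3 most like *Axin2* and *Lef1*. Genes outside the rule (such as *Spry4*, *Dusp6* and the antisense genes) were named after their values were seen. Promoter windows are RefSeq's on GRCm38.p6, and gene coordinates are those of the count files.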

Additional observations from a re-analysis of the deposited data

Results flagged for a closer look

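The difference between the lines in the log2 change of CPM plus 1 at 24 h was singled out for 3 genes, because both CreER replicates at 24 h lay on one side of both 0 h replicates and the O4AID library lay on the other side of its own 0 h. With 1 O4AID library the differences were not tested. It was 2.26 for *Lef1* (O4AID minus CreER), with 2.81 and 1.40 when 0.1 and 5 CPM were added in place of 1. It was -1.94 for *Cdx1* (-2.06 and -1.71). It was -0.37 for *T* (-0.88 and -0.10), whose O4AID interval includes 0 and which rests on 29 and 21 reads in O4AID. Of these 3 genes only *Lef1* was called in CreER at 24 h. The edgeR log2 fold change there was 0.27 for *Cdx1* (adjusted p = 0.482) and 0.52 for *T* (adjusted p = 0.323). *Znrf3* also had opposite signs (-0.11 and -0.07 in CreER, 0.24 in O4AID), but its CreER pairs at 0 and 24 h overlapped. The starting levels differed too, *Lef1* being low in O4AID and *Cdx1* in CreER.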

How the results depend on the processing

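The counts of called genes in CreER at 18 and 24 h were 2 under all 17 alternatives to the reported fit, and at 36 h they lay between 4 and 6. At 12 h the count was 1 with no filter on low counts (*Lef1*, adjusted p = 0.0423) and 0 under the other alternatives. Between 24 and 36 h it was 3 by DESeq2, 3 with the 4 compared libraries alone, and 2 to 5 when a library was left out. The cause was not tested. In O4AID total-count scaling made it 2 at 6 h (*Axin2*, 1.01), and 5 CPM added in place of 1 made it 3 at 10 h and 4 at 24 h, whereas 0.1 CPM made it 6 at 10 h. Leaving out the first 36 h library turned *Sp5* to -0.10 at 36 h (range -0.10 to 0.62 over the libraries left out), and leaving out the second turned *T* to 0.0133 (range -0.70 to 0.0133), neither of which was called. *Nkd1* was called at 36 h without the first 0 h library (0.76, edgeR adjusted p = 0.032) and *Notum* with total-count scaling (-0.21, adjusted p = 0.0375). Total-count scaling put the median of all genes at -0.103 between 24 and 36 h (0.00408 as reported) and turned the sign of *Tcf7* at 12 h and *Sp5* at 24 h, both near 0. The comparison of the lines at 0 h gave 4 or 5 genes past 2-fold under 4 alternatives chosen after seeing the data.

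The correlation of replicate deviations between times lay between -0.12 and 0.116 over 10 pairs of times, 2 of them over 0.1. No strong effect shared by a replicate number was thus seen, but this cannot say whether the replicates came from paired courses. With the replicate number as a block the counts of called genes were 0, 2, 2 and 5 at 12, 18, 24 and 36 h, and 4 between 24 and 36 h.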
